A study of Mus musculus with 11 samples.

Results

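Chemokines are small secreted proteins that direct the migration of leukocytes, and their receptors are G protein-coupled receptors on the surface of those cells. The set described here comprised every protein-coding gene whose symbol is Ccl, Cxcl, Ccr or Cxcr followed by a number, together with Cx3cl1 and Cx3cr1. There were 54 such genes among 52282 in the annotation, 36 ligands and 18 receptors. The name rule itself uses no measured value, although it was chosen with earlier results of these data known. Of the 54, 47 (31 ligands and 16 receptors) had enough reads to be tested. Ccl1, Ccl17, Ccl20, Ccl26, Ccl27b, Ccr1l1 and Cxcr1 did not pass the filter on low counts.

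The values come from RNA-seq of whole inguinal fat, a subcutaneous depot of the mouse that holds a lymph node. All mice were C57BL6/J, carried floxed alleles of Raptor (gene Rptor), an essential subunit of the kinase complex mTORC1, started a high-fat diet at 8 weeks of age and were sampled at 16 weeks. KO mice also carried a Cre recombinase driven by adiponectin, which acts in adipocytes, and WT mice were floxed littermates without it. In addition to the diet, 1 group of each genotype received rosiglitazone, an agonist of the nuclear receptor PPARG, at 30 mg per kg per day for 8 weeks. There were 3 libraries of KO with rosiglitazone, 2 of KO on diet alone, 3 of WT with rosiglitazone and 3 of WT on diet alone. The labels do not say whether libraries are separate animals, so the spread behind each p-value may be technical. In the 6 WT libraries the sample title and the treatment field contradict each other. The field was followed here, and any direction that rests on a WT treatment depends on it.

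Depth was 13035346 to 20163464 estimated reads in the 5 KO libraries and 16088059 to 40925952 in the 6 WT libraries. In CPM (counts scaled to a common library size), Rptor measured over the whole gene and all cells averaged 87.5 ± 4.73 CPM in KO with rosiglitazone and 118 ± 7.84 CPM in the WT counterpart (SD, n = 3 each). On diet alone it averaged 63.1 ± 9.25 CPM in KO (SD, n = 2) and 82.0 ± 9.21 CPM in WT (SD, n = 3). Summed markers of T, NK and B cells were 277 CPM in KO on diet replicate 1, 249 CPM in WT with rosiglitazone replicate 2 and 521 CPM in WT on diet replicate 1, against 687 to 2625 CPM in the other 8 libraries. Summed skeletal muscle markers ranged from 10.4 to 12142 CPM, highest in KO with rosiglitazone replicate 2. In bulk tissue, fewer cells of a type and less RNA per cell cannot be told apart.

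In adipose tissue, CCL2 and its relatives recruit monocytes through CCR2, and CCR1 binds a group of inflammatory ligands made largely by myeloid cells. CXCL9 and CXCL10 are induced by interferon and attract T cells through CXCR3. CCL19, CCL21 and CXCL13 organise lymph nodes through CCR7 and CXCR5, and CXCL12, the ligand of CXCR4, is made by stromal cells in many tissues.

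The bases upstream of the start site are shown for 4 of the ligands whose libraries did not overlap between KO and WT under rosiglitazone. They were searched because κB sites and interferon-stimulated response elements are the textbook control elements of several chemokines. Other such ligands are not shown, among them Cx3cl1 and Ccl6, neither of which held a κB match. Each sequence is the 250 bases before the RefSeq start on the gene's strand (GRCm38.p6), in lower case, with matches to the searched letters in capitals. They are Ccl9 (chr11:83578637-83578886, minus strand), Cxcl9 (chr5:92328080-92328329, minus strand), Cxcl10 (chr5:92348890-92349139, minus strand) and Ccl28 (chr13:119623569-119623818, plus strand).
Ccl9: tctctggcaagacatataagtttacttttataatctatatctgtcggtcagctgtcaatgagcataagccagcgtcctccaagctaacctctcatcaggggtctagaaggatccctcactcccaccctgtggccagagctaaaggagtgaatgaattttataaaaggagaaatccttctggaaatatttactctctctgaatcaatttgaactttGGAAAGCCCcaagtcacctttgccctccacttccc
Cxcl9: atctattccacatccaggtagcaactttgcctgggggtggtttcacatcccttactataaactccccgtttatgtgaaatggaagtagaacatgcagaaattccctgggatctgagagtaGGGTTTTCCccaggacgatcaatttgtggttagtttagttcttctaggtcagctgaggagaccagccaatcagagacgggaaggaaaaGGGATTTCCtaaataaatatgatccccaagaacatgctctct
Cxcl10: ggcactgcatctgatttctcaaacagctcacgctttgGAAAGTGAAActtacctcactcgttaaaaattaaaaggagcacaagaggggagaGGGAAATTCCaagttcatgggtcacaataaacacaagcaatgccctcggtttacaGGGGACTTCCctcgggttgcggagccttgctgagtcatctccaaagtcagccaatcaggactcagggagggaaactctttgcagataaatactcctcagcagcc
Ccl28: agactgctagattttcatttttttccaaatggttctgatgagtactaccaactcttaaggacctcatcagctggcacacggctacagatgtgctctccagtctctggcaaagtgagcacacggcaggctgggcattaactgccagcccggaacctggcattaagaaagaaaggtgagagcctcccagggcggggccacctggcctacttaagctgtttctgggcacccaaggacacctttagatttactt

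The κB letters searched were GGG and TTCC with 2 or 3 bases between them, on both strands. Cxcl9 held 2 matches, at 130 and 42 bases before the start, and Cxcl10 held matches at 159 and, overlapping, at 104 and 103 bases. Ccl9 had a κB match on the minus strand at 35 bases, and Ccl28 had none. The response element, searched as GAAA repeated with 2 bases between the copies, matched in Cxcl10, at 213 bases, and in none of the other 3. Over the 40 members with a RefSeq promoter, 11 held the κB letters and 3 the response element, Ccl19, Cxcl10 and Cxcl14. Of all 32536 mouse promoters of this length, 8.27% held the κB letters and 2.98% the response element. A member with more than 1 promoter counted if any of them matched, whereas these shares are per promoter. The repeat bound by PPAR receptors, searched as AGGNCA repeated with 1 base between the copies, matched in 1 member promoter, that of Ccl6, and in 0.341% of all promoters. These matches are letters in a window and not measured binding.

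Levels of different genes are compared in TPM, a normalised transcript level that divides by length. Ccl6, a macrophage chemokine of rodents, had the highest mean over the 11 libraries at 134.4 TPM. Of this, 76.1% sat in the retained-intron transcript Ccl6-202 and 21.5% in the coding Ccl6-201. The first rank is thus not one of coding RNA. Ccl6 was followed by the CCR2-type monocyte ligand Ccl8 (62.1 TPM), the lymph node ligand Ccl21a (53.3 TPM), Ccl9 (52.8 TPM) and Cxcl12 (42.3 TPM). The order was loose. Ccl6 was above Ccl8 in 10 of 11 libraries, whereas Ccl8 was above Ccl21a in 4 of 11 and Ccl21a above Ccl9 in 6 of 11. Among receptors, Ccr2 averaged 20.6 TPM, Cxcr4 19.7 TPM and Ccr7 18.9 TPM. KO on diet replicate 1 carried much of the first means. Without it Ccl6 averaged 64.9 TPM, Ccl21a 57.6 TPM, Cxcl12 38.2 TPM, Ccl9 33.1 TPM and Ccl8 25.4 TPM, so that Ccl8 moved behind the other 4. At the bottom Ccl20, Ccl27b and Ccl26 each had 1 read over all 11 libraries.

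**Figure D1:**
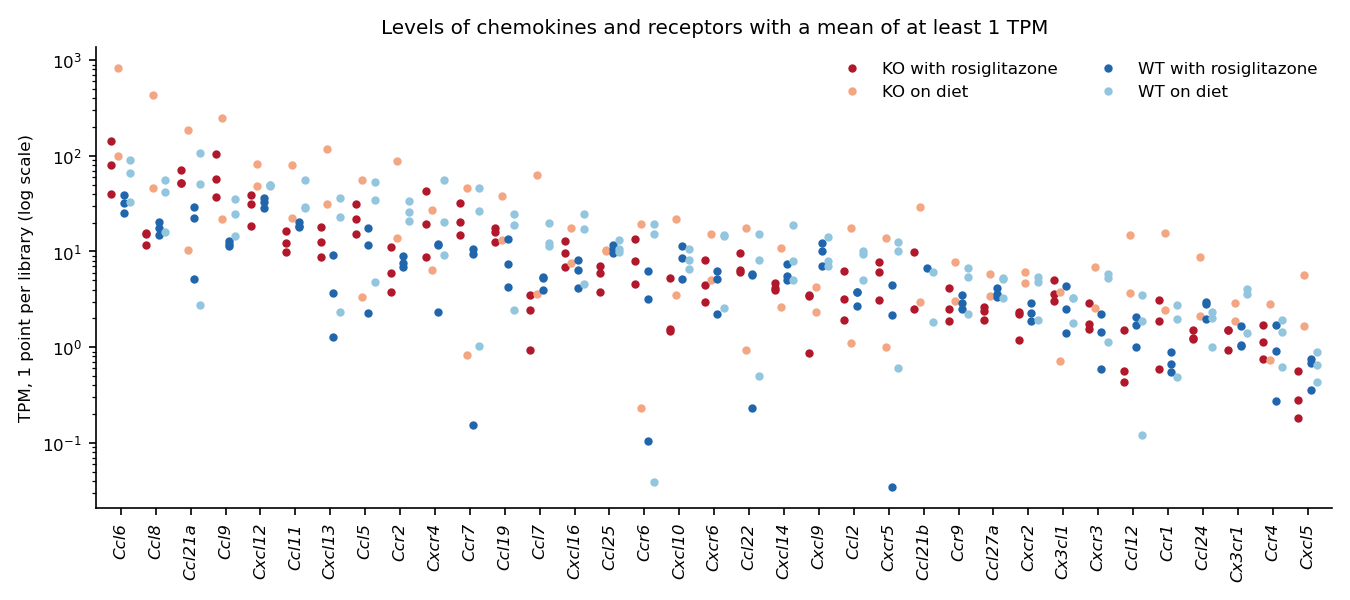
Level of 35 members with a mean of at least 1 TPM (log axis), with 1 point per library coloured by group and genes ordered by mean; libraries listed at 0 TPM are not drawn. Over all transcripts, coding or not, Ccl6 leads at 134.4 TPM, and KO on diet replicate 1 holds the highest point of Ccl6, Ccl8 and Ccl9.

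For some members most, and for others a large part, of the estimated TPM sat in transcripts that the annotation does not type as protein-coding. Retained-intron transcripts held 76.1% of Ccl6 in Ccl6-202 and 100% of Cxcl3 in Cxcl3-202. The retained-intron transcript Cxcl10-204 held 46.3% of Cxcl10 and its main coding transcript Cxcl10-201 held 51.5%. In Cx3cl1 28.7% sat in the coding Cx3cl1-201 and 35.9% in Cx3cl1-203, typed as a target of nonsense-mediated decay. Ccl25, a thymus and gut ligand, had 26.3% and 49.5% in its 2 retained-intron transcripts. By contrast Cxcl9-201 held 96.2%, Ccl9-201 91.9% and Ccl28-201 77.3% of their genes as coding transcripts. Cxcl10 overlaps Art3, Cxcl16 overlaps Zmynd15, Ccr10 overlaps Cntnap1 and Ccl25 overlaps Elavl1 on the opposite strand, and the labels do not name a strand-specific library, so reads of such pairs may be shared. Ccl21a and Ccl21b are near-identical copies whose split is uncertain.

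Differences between libraries of 1 gene are given in CPM. Members fell into patterns that crossed the groups, as the heat map of tested members shows. KO on diet replicate 1 had the highest level of Ccl6, Ccl8, Ccl7, Ccl2, Ccr2, Ccr1, Ccl9 and Cxcl13 among the 11 libraries, and the other KO library on diet alone stood far below it. Ccl8 measured 124 CPM in that library and 14.8 CPM in replicate 2. Ccl7, another CCR2-type ligand, measured 32.8 and 2.08 CPM in the same pair.

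**Figure D2:**
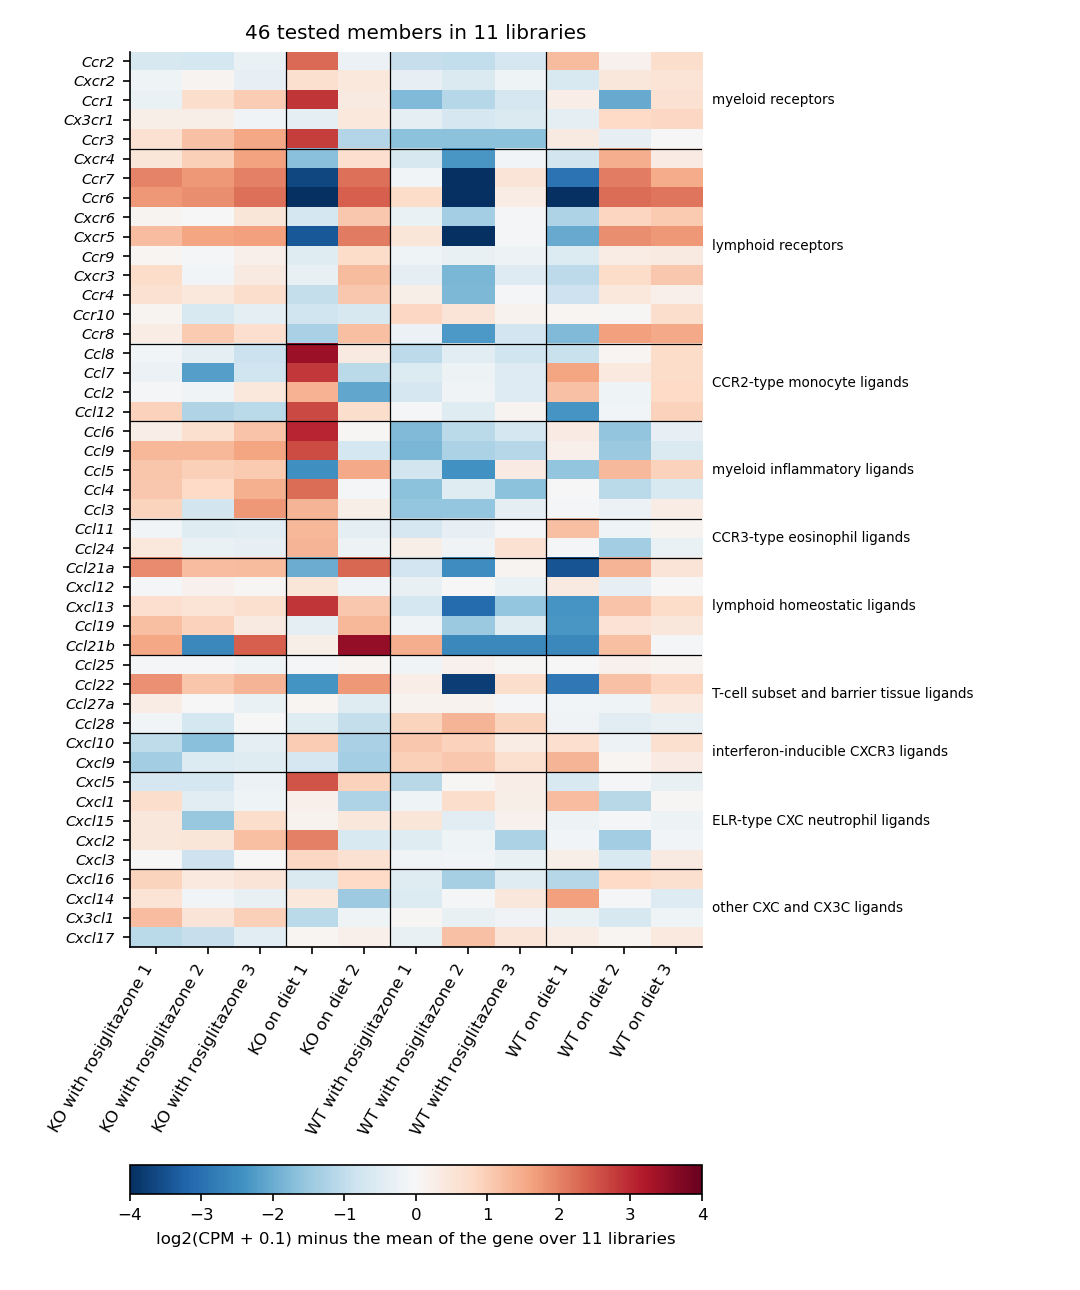
Level of 46 tested members (rows, grouped by role) in 11 libraries (columns, grouped), as log2(CPM + 0.1) minus the mean of the gene, with colours ending at 4 on either side. KO on diet replicate 1 is highest for Ccl8 (124 CPM) and low for Ccr7 (1.18 CPM), and Ccl28 is high in the 3 libraries of WT with rosiglitazone.

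KO against WT with rosiglitazone was the comparison with most calls. Of 47 members 5 passed edgeR's quasi-likelihood test at an adjusted p under 0.05, which is 10.6%, against a background of 15.0% of the 26960 genes tested. Ccl9, Cx3cl1 and Ccr3 rose in KO (5.47% of all genes rose) and Ccl28 and Cxcl9 fell (9.50% fell). Those 3 that rose are a macrophage-type ligand, fractalkine and an eosinophil receptor, and those 2 that fell are an epithelial-type and an interferon-inducible ligand. The median log2 fold change over the members was 0.70, beside 0.053 over all genes, with 34 positive and 13 negative values. At an unadjusted p under 0.05, 11 members were higher (13.6% of all genes) and 5 lower (17.7%). Libraries of the groups did not overlap, with KO higher, for 24 members (51.1%, against a background of 23.5%), and with KO lower for 5 members (10.6%, against 24.7%), namely Ccl28, Ccr10, Cxcl10, Cxcl17 and Cxcl9. The 24 included lymphoid members such as Ccr6, Ccr7 and Cxcr5, and myeloid ones such as Ccl9 and Ccr1. Summed lymphocyte markers and summed macrophage markers did not overlap between these groups either, with KO higher. Their part in the 24 was not tested.

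The count of calls moved with single libraries. It was 0 without WT with rosiglitazone replicate 2, 1 without replicate 1 of that group and 3 without its replicate 3. Leaving out a library of KO with rosiglitazone gave 1 (replicate 1), 2 (replicate 2) or 1 (replicate 3). Leaving out a library of KO on diet gave 8 (replicate 1) or 9 (replicate 2), which leaves that group 1 library that is assumed to vary like the other groups. The share of all genes called in these 8 fits was 5.60 to 18.9%. With WT grouped by titles 1 member passed, Cx3cl1, beside 2.31% of all genes. Without the 4 libraries richest in muscle markers, a set chosen after seeing the data, 0 members and 0 of all genes passed. That fit has 1 library of WT with rosiglitazone, assumed to vary like the other groups, so its count of 0 says nothing about the stability of the 5 calls.

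Ccl9, a ligand of CCR1 in mice (ENSMUSG00000019122.8, GRCm38 chromosome 11, 83572919 to 83578636, minus strand), measured 222, 223 and 263 CPM in KO with rosiglitazone and 24.8, 36.6 and 40.3 CPM in WT with rosiglitazone. It measured 538 and 54.6 CPM in KO on diet alone and 102, 31.7 and 59.9 CPM in WT on diet alone. All 3 KO libraries with rosiglitazone were above every WT library, whereas of the KO libraries on diet alone 1 lay above them and 1 among them. The log2 fold change under rosiglitazone was 2.80 ± 0.71 (SE, edgeR, adjusted p = 0.0292), and on diet alone it was 2.20 ± 0.74 (adjusted p = 0.326). Ccl6, its neighbour on chromosome 11, measured 71.3, 92.5 and 131 CPM in KO with rosiglitazone and 17.4, 28.6 and 37.0 CPM in WT with rosiglitazone. Those libraries did not overlap, but the difference of 1.83 ± 0.71 on the log2 scale missed the threshold (edgeR, adjusted p = 0.111).

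The myeloid inflammatory ligands Ccl3, Ccl4, Ccl5, Ccl6 and Ccl9 had 1 of 5 members past the threshold and a median log2 fold change of 2.80. Ccl4 stood at 3.43 ± 1.12 (adjusted p = 0.0659 by edgeR) and Ccl3 at 3.73 ± 1.26 (adjusted p = 0.0735 by edgeR), both from few reads. Ccl5, a ligand made by T cells and platelets, measured 15.0, 13.6 and 14.3 CPM in KO with rosiglitazone and 4.12, 1.21 and 8.69 CPM in WT with rosiglitazone. Its log2 fold change of 1.63 ± 1.02 did not pass, although the libraries did not overlap (edgeR, adjusted p = 0.302).

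Most macrophage markers were also higher in KO against WT with rosiglitazone. Of 20 markers 15 rose in KO with rosiglitazone and 0 fell, with a median log2 fold change of 2.07, and none was at 0 in any library. Ctss, Itgax, Trem2 and Mpeg1 had log2 fold changes of 3.14, 3.16, 3.78 and 2.58. The summed markers were 4034 to 5004 CPM in KO with rosiglitazone and 814 to 1009 CPM in WT with rosiglitazone. On diet alone they were 4769 and 1547 CPM in KO and 1100 to 1608 CPM in WT. As a percent of that sum, Ccl9 was 4.96, 5.53 and 5.25 in KO with rosiglitazone and 3.05, 4.28 and 3.99 in WT with rosiglitazone. Ccl6 was 1.60, 2.29 and 2.62% of it in those KO libraries and 2.13, 3.34 and 3.67% in the WT ones. With the marker sum as a covariate, chosen after seeing the data, the log2 fold change of Ccl9 was -1.94 (edgeR, adjusted p = 0.0517). The marker sums of the groups compared did not overlap, so this fit cannot separate genotype from marker level. No direction is drawn from it.

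**Figure D3:**
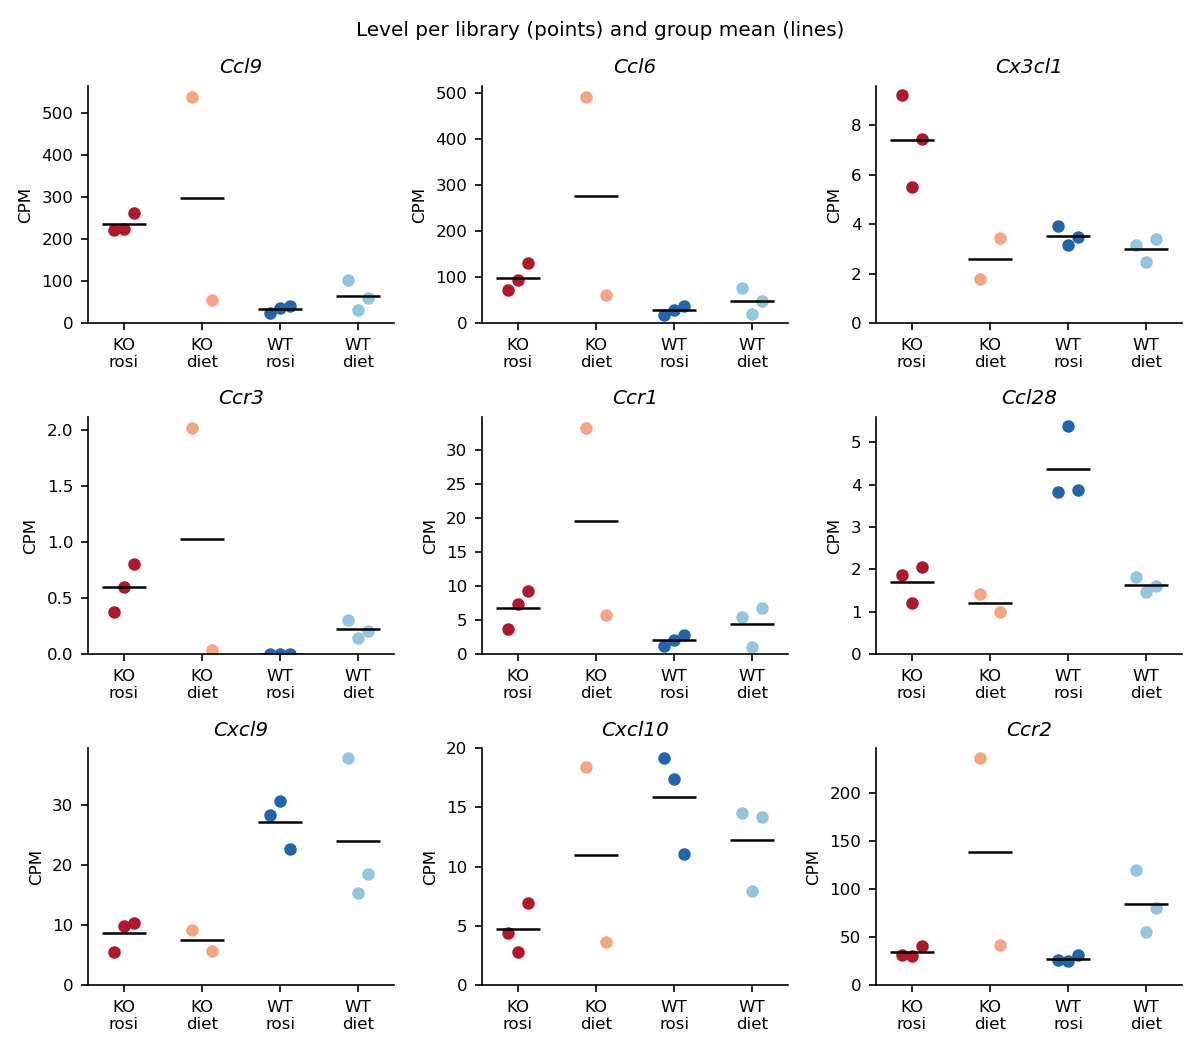
CPM of 9 members in each library (points) with the mean of the group (lines), from left to right KO with rosiglitazone (rosi), KO on diet alone, WT with rosiglitazone and WT on diet alone. Ccl28 is highest in WT with rosiglitazone at 3.84 to 5.38 CPM, Cxcl9 is lower in all 5 KO libraries than in all 6 WT libraries, and Ccr3 has no reads in WT with rosiglitazone.

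Cx3cl1, the membrane-bound chemokine fractalkine (ENSMUSG00000031778.13, GRCm38 chromosome 8, 94772009 to 94782427, plus strand), measured 9.23, 5.50 and 7.47 CPM in KO with rosiglitazone and 3.94, 3.14 and 3.49 CPM in WT with rosiglitazone. It measured 1.77 and 3.44 CPM in KO on diet alone and 3.17, 2.46 and 3.39 CPM in WT on diet alone. The 3 KO libraries with rosiglitazone were above the other 8 libraries. The log2 fold change of KO over WT under rosiglitazone was 1.07 ± 0.29 (edgeR, adjusted p = 0.0333). From protein-coding transcripts alone, a choice made after seeing the data, it was 1.10 ± 0.36 and missed the threshold (edgeR, adjusted p = 0.0552). Rosiglitazone over diet alone gave 1.50 ± 0.33 in KO (adjusted p = 0.225 by edgeR) and 0.23 ± 0.29 in WT, and the difference between these was 1.27 ± 0.43 (interaction, adjusted p = 0.352 by edgeR). Its receptor Cx3cr1, a marker of patrolling monocytes and some macrophages, measured 7.86, 7.91 and 6.04 CPM in KO with rosiglitazone and 5.15, 4.20 and 4.44 CPM in WT with rosiglitazone. The KO values were all higher, at 0.66 ± 0.33 on the log2 scale (edgeR, adjusted p = 0.198).

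Ccr3, the receptor of eosinophils, had 27 reads over the 3 libraries of KO with rosiglitazone and 0 reads over the 3 of WT with rosiglitazone. Set against 3 counts for the whole WT group, it was 15.1-fold higher in KO (edgeR, adjusted p = 0.0402). This fold allows for counting error of the 0 reads only and takes the 27 reads as exact. Ccr3 passed the filter on low counts only through KO libraries, where it was higher, so its call is no independent support for a difference. The KO libraries measured 0.374, 0.602 and 0.809 CPM. KO on diet alone held 2.02 and 0.0399 CPM, and WT on diet alone 0.304, 0.147 and 0.209 CPM. Of 4 eosinophil markers, 2 were tested and 0 passed in this comparison. Their sum was 7.23 to 11.95 CPM in KO with rosiglitazone and 5.66 to 6.43 CPM in WT with rosiglitazone, and Prg2 and Epx were at 0 in some libraries. Ccl11 (eotaxin), a CCR3 ligand, measured 21.9, 16.9 and 17.0 CPM in KO with rosiglitazone and 14.7, 18.6 and 22.8 CPM in WT with rosiglitazone, with overlapping libraries and a log2 fold change of -0.01 ± 0.44 (edgeR, adjusted p = 0.995).

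Ccr2, the receptor of CCL2 on inflammatory monocytes, measured 31.3, 30.4 and 40.9 CPM in KO with rosiglitazone and 26.0, 25.1 and 31.1 CPM in WT with rosiglitazone, which overlapped. Relative to summed macrophage markers, Ccr2 was 0.701, 0.752 and 0.817% in KO with rosiglitazone, 4.97 and 2.69% in KO on diet alone, 3.19, 2.93 and 3.09% in WT with rosiglitazone and 7.44, 5.05 and 4.99% in WT on diet alone. The 3 libraries of KO with rosiglitazone were lowest by this measure. These ratios carry no test. Ccr1, a receptor of monocytes and neutrophils that binds CCL9, measured 3.68, 7.38 and 9.21 CPM in KO with rosiglitazone and 1.24, 1.99 and 2.79 CPM in WT with rosiglitazone, without overlap (1.76 ± 0.77, edgeR, adjusted p = 0.153). Cxcr2, the neutrophil receptor of ELR-type ligands, overlapped, at 7.92, 9.71 and 7.09 CPM in KO with rosiglitazone and 7.14, 5.97 and 7.86 CPM in WT with rosiglitazone.

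Of the 4 CCR2-type ligands 0 passed in KO against WT with rosiglitazone, their libraries overlapped, and the median log2 fold change was 0.20. Ccl8 measured 10.6, 8.81 and 6.29 CPM in KO with rosiglitazone and 5.54, 8.34 and 6.60 CPM in WT with rosiglitazone (0.33 ± 0.66, edgeR, adjusted p = 0.773). Ccl2, the monocyte attractant also called MCP-1, measured 3.49, 3.31 and 4.98 CPM in KO with rosiglitazone and 2.27, 3.33 and 2.54 CPM in WT with rosiglitazone (0.53 ± 0.69, edgeR, adjusted p = 0.630). Ccl7 stood at -0.46 ± 0.83. Of the 5 ELR-type neutrophil ligands 0 passed, with a median of -0.05. All 5 were scarce, with a highest value of 6.40 CPM, that of Cxcl5 in KO on diet replicate 1. Of 8 neutrophil markers, 4 were tested and 0 passed in this comparison. Their sum was 10.2 to 16.8 CPM in KO with rosiglitazone, 60.7 and 12.5 CPM in KO on diet alone, 7.23 to 9.27 CPM in WT with rosiglitazone and 11.8 to 17.0 CPM in WT on diet alone. Csf3r, at up to 26.7 CPM, and Mmp9, at up to 25.6 CPM, were the most abundant, and S100a8, S100a9, Retnlg, Ngp and Ltf were at 0 in some libraries.

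Cxcl9 (ENSMUSG00000029417.9, GRCm38 chromosome 5, 92321347 to 92328079, minus strand) fell to 5.55, 9.86 and 10.4 CPM in KO with rosiglitazone, against 28.4, 30.6 and 22.6 CPM in WT with rosiglitazone. The log2 fold change was -1.66 ± 0.37 (edgeR, adjusted p = 0.0176). On diet alone it measured 9.21 and 5.63 CPM in KO and 37.9, 15.4 and 18.5 CPM in WT, at -1.69 ± 0.43 (edgeR, adjusted p = 0.187). The 5 KO libraries were below all 6 WT libraries, a separation that does not depend on which WT label is used. Cxcl10 measured 4.43, 2.79 and 6.91 CPM in KO with rosiglitazone and 19.2, 17.4 and 11.1 CPM in WT with rosiglitazone. Its -1.75 ± 0.55 missed the threshold (edgeR, adjusted p = 0.0600). On diet alone the libraries overlapped, at 18.4 and 3.63 CPM in KO and 14.5, 7.96 and 14.2 CPM in WT. The 2 main transcripts of Cxcl10 differed. The retained-intron Cxcl10-204 measured 0.418, 0.396 and 1.13 TPM in KO with rosiglitazone and 10.1, 6.59 and 4.02 TPM in WT with rosiglitazone, without overlap. The coding Cxcl10-201 measured 1.07, 1.14 and 4.16 TPM in KO with rosiglitazone and 0.816, 1.59 and 0.982 TPM in WT with rosiglitazone, which overlapped. TPM is lowered unequally in these libraries. The top small RNA of each took 252553 to 469915 TPM in KO with rosiglitazone and 187651 to 259753 TPM in WT with rosiglitazone. From protein-coding transcripts alone the log2 fold change of Cxcl10 was 1.03 ± 0.64, of the other sign (edgeR, adjusted p = 0.263), so no direction is given for its coding RNA. Whether reads of Art3 enter the retained-intron value was not tested. For Cxcl9 the coding value was -1.46 ± 0.32 (edgeR, adjusted p = 0.0117).

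Their receptor Cxcr3 measured 6.55, 3.61 and 5.04 CPM in KO with rosiglitazone and 3.02, 1.03 and 2.73 CPM in WT with rosiglitazone. These libraries did not overlap, at 1.18 ± 0.62 on the log2 scale (edgeR, adjusted p = 0.219).

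Ccl28, a ligand of CCR10 and CCR3 best known from mucosal epithelia (ENSMUSG00000074715.3, GRCm38 chromosome 13, 119623819 to 119654359, plus strand), measured 1.87, 1.21 and 2.05 CPM in KO with rosiglitazone and 3.84, 5.38 and 3.87 CPM in WT with rosiglitazone. It measured 1.43 and 0.999 CPM in KO on diet alone and 1.82, 1.47 and 1.62 CPM in WT on diet alone. The 3 libraries of WT with rosiglitazone were above the other 8. The log2 fold change of KO over WT under rosiglitazone was -1.35 ± 0.28 (edgeR, adjusted p = 0.0124). Its receptor Ccr10 also had non-overlapping libraries, at 1.56, 0.904 and 1.06 CPM in KO with rosiglitazone and 2.63, 2.08 and 1.58 CPM in WT with rosiglitazone (-0.84 ± 0.33, edgeR, adjusted p = 0.113). Mature adipocyte markers fell alongside: 13 of 15 were lower in KO with rosiglitazone, 0 were higher, and the median was -2.76. Their sum was 5756 to 6325 CPM in KO with rosiglitazone and 33151 to 37206 CPM in WT with rosiglitazone, and none was at 0. On diet alone the sum was 9151 and 2980 CPM in KO and 36878, 15114 and 12840 CPM in WT. The part of these markers in the values of Ccl28 and Cxcl9 was not tested.

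**Figure D4:**
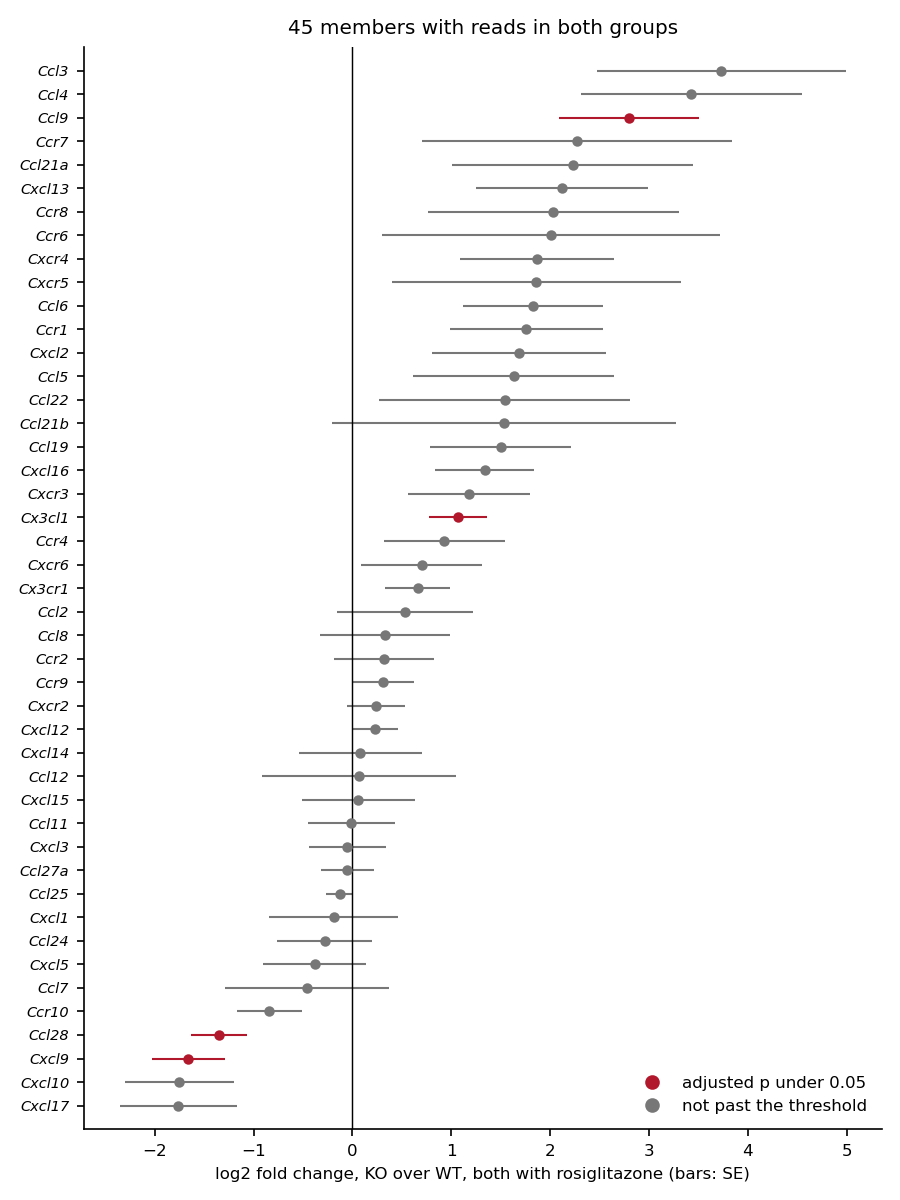
Log2 fold change of KO over WT, both with rosiglitazone, for 45 tested members with reads in both groups (points) with the standard error (bars); red marks an adjusted p under 0.05. Ccl9 at 2.80 and Cx3cl1 at 1.07 are the red points above 0, and Ccl28 at -1.35 and Cxcl9 at -1.66 those below; Ccr3 has no reads in WT and is not drawn.

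Lymphoid receptors and lymph node ligands had large differences with larger errors. Of the 10 lymphoid receptors 0 passed in KO against WT with rosiglitazone, at a median log2 fold change of 1.52 and 9 positive values. Summed T, NK and B cell markers were 1587 to 1847 CPM in KO with rosiglitazone and 249 to 850 CPM in WT with rosiglitazone. These sums did not overlap. Log2 fold changes were positive for 19 of 20 T and NK cell markers (median 1.94) and 15 of 15 B cell markers (median 1.90). The part of these markers in the members' values was not tested. Ccr7, the receptor that guides lymphocytes and dendritic cells into lymph nodes, measured 63.3, 53.8 and 64.6 CPM in KO with rosiglitazone and 14.8, 0.311 and 22.8 CPM in WT with rosiglitazone. It measured 1.18 and 74.1 CPM in KO on diet alone and 1.95, 66.0 and 45.0 CPM in WT on diet alone. The log2 fold change under rosiglitazone was 2.27 ± 1.57 (edgeR, adjusted p = 0.350). Cxcr4, the CXCL12 receptor, measured 24.3, 34.2 and 53.8 CPM in KO with rosiglitazone and 11.1, 3.42 and 16.4 CPM in WT with rosiglitazone, at 1.87 ± 0.78 (edgeR, adjusted p = 0.136).

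The 3 libraries with the lowest T, NK and B cell markers were also the lowest in Ccr6, Ccr7 and Cxcr5, and they belong to 3 different groups. Ccr6, a receptor of B cells and some T cells, measured 0.197 CPM in KO on diet replicate 1, 0.124 CPM in WT with rosiglitazone replicate 2 and 0.0434 CPM in WT on diet replicate 1, against 5.90 to 25.6 CPM elsewhere. As a percent of the summed lymphocyte markers Ccr6 was 0.858 to 1.23 in the other 8 libraries and 0.00832 to 0.0711 in those 3. Cxcr4 did not share this drop, at 1.06 to 2.91% in all 11. Cxcl13, the B cell follicle chemokine, was 0.466 to 1.30% of the marker sum in 10 libraries and 33.9% in KO on diet replicate 1, where it reached 93.9 CPM. Ccl21a measured 5.96, 4.11 and 2.08 CPM in the 3 libraries and 13.8 to 118 CPM in the others. All 20 T and NK cell markers and all 15 B cell markers were above 0 in every library, and 0 of them passed in any comparison.

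**Figure D5:**
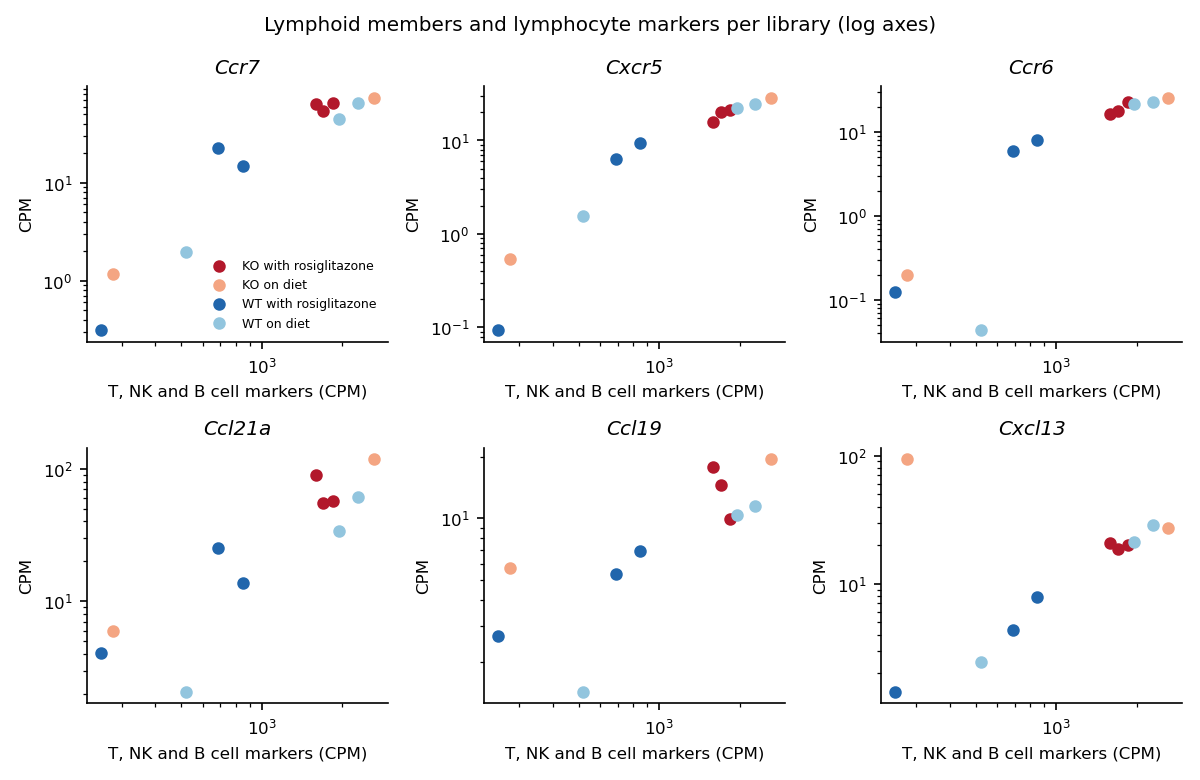
CPM of 6 lymphoid members against the summed CPM of T, NK and B cell markers, with 1 point per library on log axes, coloured by group. Ccr7, Cxcr5 and Ccr6 are lowest in the 3 libraries with 249 to 521 CPM of markers, and Cxcl13 stands apart at 93.9 CPM in KO on diet replicate 1.

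Without those 3 libraries, a set chosen after seeing the data, 17 of 47 members passed in KO against WT with rosiglitazone, 14 higher and 3 lower, beside 26.5% of all genes in that fit, including the 5 named above. The set was chosen by lymphocyte markers, and Ccr6, Ccr7, Cxcr5 and Ccl21a were low in the same libraries. The added calls, among them these members, Ccl19 and Cxcl13, cannot be separated from that choice and are no support. The fit kept 2 libraries of WT with rosiglitazone and 1 of KO on diet. Its filter was applied anew, so the members tested may differ from 47. Among ligands of T cell subsets and barrier tissues, Ccl22, which attracts CCR4-bearing T cells and is made by dendritic cells and macrophages, measured 30.6, 18.4 and 22.0 CPM in KO with rosiglitazone and 10.2, 0.529 and 13.9 CPM in WT with rosiglitazone (1.54 ± 1.27, edgeR, adjusted p = 0.436). It too was low in KO on diet replicate 1, at 1.53 CPM, and in WT on diet replicate 1, at 1.08 CPM. Cxcl16, the ligand of CXCR6, measured 36.2, 25.7 and 28.2 CPM in KO with rosiglitazone and 14.0, 7.78 and 13.9 CPM in WT with rosiglitazone, without overlap (1.34 ± 0.50, edgeR, adjusted p = 0.101).

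Ccl25 lay between 16.3 and 20.9 CPM in all 11 libraries (-0.13 ± 0.14 for KO over WT with rosiglitazone, edgeR, adjusted p = 0.545), and Ccl27a, a skin T cell ligand, between 1.48 and 2.76 CPM. Cxcl14, a ligand of epithelium and fat, ranged from 3.83 to 33.3 CPM, with the highest value in WT on diet replicate 1 and overlap between KO and WT with rosiglitazone. Cxcl12 measured 161, 186 and 173 CPM in KO with rosiglitazone and 136, 169 and 139 CPM in WT with rosiglitazone, which overlapped (0.23 ± 0.23, edgeR, adjusted p = 0.518).

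Rosiglitazone in WT changed 1 of 47 members, 2.13%, beside 2.14% of all genes (1.55% rose and 0.593% fell). Ccl28 rose by 1.41 ± 0.27 on the log2 scale (edgeR, adjusted p = 0.0351), with WT libraries on rosiglitazone all above those on diet alone. By the titles, the same libraries give a fall of the same size. The call held in 4 of 11 fits with a library left out, and not without KO with rosiglitazone replicate 1 or 3, any replicate of WT with rosiglitazone, or WT on diet replicate 2 or 3. At an unadjusted p under 0.05, Ccl28 was higher (9.93% of all genes) and 4 myeloid receptors were lower, among them Ccr2, Ccr3 and Cx3cr1 (7.50% of all genes). Ccr2 measured 26.0, 25.1 and 31.1 CPM in WT with rosiglitazone and 119.6, 55.5 and 80.1 CPM in WT on diet alone. The libraries did not overlap, at -1.63 ± 0.52 (edgeR, adjusted p = 0.145). Cx3cr1 stood at -1.07 ± 0.33 (adjusted p = 0.130 by edgeR). Ccr3 had 0 reads in WT with rosiglitazone and 14 in WT on diet alone (adjusted p = 0.195 by edgeR). With 3 counts in place of the 0, and the 14 taken as exact, Ccr3 was 5.67-fold lower. Libraries did not overlap, with rosiglitazone lower, for 6 members (12.8%, against a background of 10.4%) and higher for 1 (2.13%, against 13.4%). The members' median was -0.72, beside -0.046 over all genes, with 37 of 47 negative. Summed macrophage markers were 814 to 1009 CPM in WT with rosiglitazone and 1100 to 1608 CPM in WT on diet alone, where 3 of 20 markers fell. Lymphocyte markers were 249 to 850 CPM in WT with rosiglitazone and 521 to 2293 CPM in WT on diet alone. Their part in the members' values was not tested.

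Rosiglitazone in KO gave 0 calls by edgeR, beside 0.0148% of all genes (0.0111% higher and 0.00371% lower). The unadjusted p was under 0.05 for 1 member that was higher (4.09% of all genes) and 6 that were lower (4.27%). Libraries did not overlap, with rosiglitazone higher, for Ccr10 and Cx3cl1 (4.26%, against a background of 10.5%), and with rosiglitazone lower for 7 members (14.9%, against 10.7%). DESeq2 called 4, Cx3cl1 higher and Ccl8, Ccr2 and Cxcl5 lower, beside 1.35% of all genes. Cxcl5, an ELR-type ligand that attracts neutrophils, measured 0.623, 0.602 and 0.871 CPM in KO with rosiglitazone and 6.40 and 2.08 CPM in KO on diet alone. The groups did not overlap, at -2.58 ± 0.55 (edgeR, adjusted p = 0.200). Summed neutrophil markers were 10.2 to 16.8 CPM in KO with rosiglitazone and 60.7 and 12.5 CPM in KO on diet alone, and their part in the Cxcl5 values was not tested. Ccl8 measured 10.6, 8.81 and 6.29 CPM in KO with rosiglitazone and 124 and 14.8 CPM in KO on diet alone, at -3.02 ± 0.74 (edgeR, adjusted p = 0.270), and at -0.79 without KO on diet replicate 1. Without KO on diet replicate 2 the count of calls was 4, namely Ccl7, Ccl8, Ccr2 and Cxcl5, all lower, beside 0.513% of all genes. Leaving out either KO library on diet sets the comparison against 1 library, which is assumed to vary like the other groups. All 4 CCR2-type ligands had negative values, with a median of -2.53.

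KO against WT on diet alone gave 0 calls by edgeR, beside 0.137% of all genes (0.0260% higher and 0.111% lower). The unadjusted p was under 0.05 for 8 members that were higher (4.57% of all genes) and 2 that were lower (5.92%). DESeq2 called 4, Ccl6, Ccl8 and Cxcl5 higher and Cxcl9 lower, beside 2.73% of all genes. Cxcl5 measured 6.40 and 2.08 CPM in KO on diet alone and 0.651, 0.982 and 0.834 CPM in WT on diet alone, at 2.36 ± 0.53 (edgeR, adjusted p = 0.159). Libraries did not overlap, with KO higher, for Cxcl15, Cxcl3 and Cxcl5 (6.38%, against a background of 10.5%), and with KO lower for Ccl28, Ccr10 and Cxcl9 (6.38%, against 10.3%). Ccl8 had a log2 fold change of 2.47 ± 0.72 (edgeR, adjusted p = 0.252), which was 0.24 without KO on diet replicate 1. Without KO on diet replicate 2 the count of calls was 5, among them Ccl6, Ccl8, Ccl9 and Cxcl5, all higher, beside 0.885% of all genes. Both of these fits hold 1 KO library on diet, with its spread assumed as above. Summed neutrophil markers were 60.7 and 12.5 CPM in KO on diet alone and 11.8 to 17.0 CPM in WT on diet alone, and their part in Cxcl5 was not tested. These comparisons and the rosiglitazone comparisons share libraries.

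The interaction, in which the rosiglitazone difference in WT is taken from that in KO, gave 0 calls among the members by edgeR, beside 0.104% of all genes (0.0853% higher and 0.0185% lower). Cx3cl1 was higher (4.90% of all genes) and Cxcl5 lower (5.64%) at an unadjusted p under 0.05. DESeq2 also called 0, beside 1.97% of all genes. Without KO on diet replicate 2, which leaves 1 library in that group, edgeR called 1, Cxcl5, beside 1.23% of all genes. The smallest p-values belonged to Cxcl5 (-2.74 ± 0.75, edgeR, adjusted p = 0.246), Cx3cl1 (1.27, given above) and Cx3cr1 (1.08 ± 0.49, edgeR, adjusted p = 0.478). All 10 lymphoid receptors had positive values, with a median of 1.49, and the T and NK cell and B cell markers were positive for 20 of 20 and 15 of 15.

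Genes outside the name rule were read from lists of the pathway. Among 29 genes of chemokine receptor signalling, 9 rose in KO against WT with rosiglitazone and 0 fell, beside 5.47% of all genes that rose, with a median log2 fold change of 1.03. In the same comparison 15 of 20 macrophage markers rose, with summed levels of 4034 to 5004 CPM in KO with rosiglitazone and 814 to 1009 CPM in WT with rosiglitazone. The part of macrophage content in the list was not tested. They included Rgs1, which shortens G protein signalling (3.27 ± 0.33, edgeR, adjusted p = 0.000655), Pik3r5, a regulatory subunit of PI3K gamma (2.05 ± 0.27), the Src-family kinase Fgr (1.84 ± 0.33) and the arrestin Arrb2 (1.38 ± 0.24). In WT 3 of the 29 fell with rosiglitazone and 0 rose, namely Rgs1 (-1.52), Fgr (-1.58) and Lyn (-0.85), beside 0.593% of all genes that fell and 3 of 20 macrophage markers. Of 9 atypical receptors and relatives 1 fell in KO against WT with rosiglitazone, beside 9.50% of all genes that fell, and 0 rose. It was the scavenger of CCL19 and CCL21 Ackr4 (-2.16 ± 0.32, edgeR, adjusted p = 0.00339). Of 23 tested inducers of chemokine transcription 2 were called in that comparison, which is not above the 15.0% of all genes called. Both were subunits of the interferon gamma receptor. Ifngr1 fell (-1.18 ± 0.27) and Ifngr2 rose (0.45 ± 0.13) in KO against WT with rosiglitazone. These lists held 0 calls in the other comparisons.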

How the data were processed

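Inguinal fat RNA was extracted with Trizol and made into Nextera XT libraries, per the labels' protocols. Transcripts were quantified with Salmon, per the submitters' processing notes. These notes list edgeR and the builds mm10 and GRCm38 too, without versions. Each deposited file holds the authors' estimated counts and TPM values per transcript for 1 library, per the file headers. Its 132288 transcripts were matched to the GRCm38 GENCODE annotation (99.7%), and the unmatched ones, 0.0985% to 0.144% of reads, were dropped. Summing the estimated counts over the transcripts of a gene and rounding gave the tested table, from which CPM was computed after TMM scaling. TPM is used to compare genes, for the transcripts of Cxcl10, in 1 alternative fit and in a ratio of mean levels. Other differences between libraries are in CPM, since a single small RNA took 152907 to 469915 TPM of a library.

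The test was edgeR's quasi-likelihood test (edgeR 4.0.16, R 4.3.3) with robust dispersion, 1 mean per group over all 11 libraries and the default filter by group, which kept 26960 genes. Benjamini-Hochberg adjustment ran over all of these genes, with a threshold of 0.05. The standard error is the log2 fold change divided by the root of F. The script was tested on simulated data. Libraries of a group differed by a chi-square of 29.3 to 155 per degree of freedom, so each counted as 1 sample.

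Members, lists and tests were chosen with earlier results of these data known. Values are given for members called in any comparison, the 3 highest in mean TPM of each role list and the 3 smallest p-values of each comparison; of lists, at most 4 called genes. Values of 1 member are not reported here. Members added to these were chosen after their values were seen. Alternatives were other scalings and filters, DESeq2 1.42.0, limma 3.58.1 (voom, and trend on log2(TPM + 1)), the 2 groups alone, a replicate block, WT groups by titles, a lymphocyte marker covariate and each library left out. Added after seeing the data were fits without the 3 libraries lowest in lymphocyte markers or the 4 highest in muscle markers, with protein-coding transcripts alone, and with a macrophage marker covariate. Promoter sequences are from RefSeq (GRCm38.p6), which held 40 of the 54 members.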

Additional observations from a re-analysis of the deposited data

How the results depend on the processing

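In KO against WT with rosiglitazone the 5 called members became 11 with DESeq2, 12 with limma-voom, 3 on log2(TPM + 1), 12 with the 2 groups alone, 9 with the lymphocyte covariate, 1 with WT grouped by titles, 17 without the libraries lowest in lymphocyte markers and 0 without those highest in muscle markers, where no gene passed. It was 5 with RLE scaling, 6 with upper-quartile scaling, 4 with no filter, 5 with the filter of 1 CPM in 3 libraries and 6 with protein-coding transcripts alone. With a library left out the count was 0 to 9, and 0 without WT with rosiglitazone replicate 2. The 7 calls with the macrophage covariate, which did not overlap between these groups, were all lower and shared 0 with the 5. For rosiglitazone in WT the count of 1 became 3 with DESeq2, 11 with limma-voom, 9 with the lymphocyte covariate, 16 without the libraries lowest in lymphocyte markers and 3 with the macrophage covariate. It was 0 on log2(TPM + 1), with protein-coding transcripts alone and without the muscle-rich libraries, and 0 to 4 with a library left out. For rosiglitazone in KO the count of 0 became 4 with DESeq2, 1 on log2(TPM + 1), 1 without the lymphocyte-poor libraries, 6 with the macrophage covariate and 0 to 4 with a library left out. For KO against WT on diet it became 4 with DESeq2, 11 by titles, 2 with the lymphocyte covariate, 1 without the lymphocyte-poor libraries, 1 with the macrophage covariate and 0 to 5 with a library left out. For the interaction it became 1 without the lymphocyte-poor libraries, 4 with the macrophage covariate and 0 to 1 with a library left out. The cause was not tested. Fits without the muscle-rich libraries hold 1 library of WT with rosiglitazone, and those without the lymphocyte-poor libraries, or without 1 library of KO on diet, hold 1 of KO on diet. A lone library is assumed to vary like the other groups.

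Directions turned by titles for rosiglitazone in WT in Ccl28 (-1.41), Cx3cr1 (1.07) and Ccr2 (1.63), for KO against WT with rosiglitazone in Ccl28 (0.07) and for the interaction in Cx3cr1 (-1.06). Ccl8 on diet was -0.10 without the lymphocyte-poor libraries, and with the macrophage covariate Ccl9 was -1.94 and Ccr3 -0.38 in KO against WT with rosiglitazone. That covariate did not overlap between the groups compared, so its fit cannot decide these directions. The called log2 fold changes kept their direction with each library left out: Ccl28 -1.50 to -1.09 (past the threshold in 9 of 11 fits), Cxcl9 -1.82 to -1.43 (7), Cx3cl1 0.88 to 1.31 (6), Ccl9 2.62 to 2.94 (5) and Ccr3 in 3, and Ccl28 for rosiglitazone in WT 1.23 to 1.50 (4). With protein-coding transcripts alone Cx3cl1 in KO against WT with rosiglitazone was 1.10, past the threshold no longer (edgeR, adjusted p = 0.0552). In the ratio of mean levels Ccl28 was -1.99 in TPM and -1.35 in CPM.

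Replicate numbers did not pair the samples (correlations of same-numbered deviations -0.42 to 0.61). With the replicate block the count for rosiglitazone in WT was 0, and it was 4 for KO against WT with rosiglitazone. Depth limits members with few reads, such as Ccr3, with 83 reads over all 11 libraries.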
